A study of Homo sapiens with 12 samples.

Results

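Kinesins are motor proteins that walk along, or take apart, microtubules, and the human genes for them carry the name KIF and a number. The genes described here are the 40 protein-coding genes of the deposited count table, out of 58735 genes and 19951 protein-coding genes in all, whose symbol is KIF followed by a digit. KIFC and KIFAP genes were left out by that rule. The genes were sorted by known role into 13 mitotic motors, 13 transport motors, 9 motors of cilia and microtubule regulation and 5 others. At least 1 read was counted for 38 of the 40, and 34 passed the filter on low counts and were tested: 11 mitotic, 12 transport, 7 of cilia and microtubule regulation and 4 others.

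RNA sequencing of poly-A selected RNA was carried out on A549 cells, an established human non-small cell lung cancer line, in 4 groups of 3 biological replicates. All cells carried a stable short hairpin RNA, either a control hairpin (shControl) or a hairpin against FXR (shFXR), and were sham irradiated or collected 3 days after ionizing radiation. The sources used here do not state the radiation dose or whether each line was a clone or a pool. The comparisons ask how the knockdown bears on the radiation response of these cells.

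The library totals lay between 17140918 and 19036159 counts. Levels are CPM, counts scaled to library size with TMM factors, and errors of levels are SD over 3 libraries. The label FXR was read as the farnesoid X receptor gene NR1H4, which was at 23.6 ± 1.5 and 24.8 ± 3.8 CPM in sham and irradiated shControl cells and at 4.15 ± 1.2 and 3 ± 0.14 CPM in the shFXR groups. The epithelial keratin and junction genes KRT8, KRT18, KRT7, CDH1 and EPCAM were all expressed, but the lines differed in them: they summed to 6411 to 8999 and 8582 to 10091 CPM in sham and irradiated shControl and to 4039 to 5048 and 4168 to 4534 CPM in shFXR libraries. Without radiation 4 of the 5 were called lower in the shFXR line. Of 5 leukocyte markers 4 stayed under 10 counts in every library, with CD3E at 0, and the other, CD14, was at 45.8 ± 12 CPM in sham shControl and 8.66 ± 0.97 CPM in sham shFXR cells. The 6 fibroblast markers summed to 16.3 to 23.9 CPM in shControl and 26.8 to 40.8 CPM in shFXR libraries, with 2 called higher and 2 lower without radiation. The part of these shifts in the differences between the lines was not tested. The second sham shControl library stood apart from its group: 16.8% of its counts came from the mitochondrial genome, against 12.9% and 13.6% in the other two, and it was the lowest of its group in 38.5% of all tested genes. Calls gained or lost without it are given with the values.

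Mitotic kinesins build the spindle, move chromosomes and cut the dividing cell apart. Their transcripts accumulate late in the cell cycle, in G2 and mitosis, and fall when cells leave the cycle. Transport kinesins carry vesicles, organelles and ciliary cargo and are needed in dividing and resting cells alike. The promoters of many late cell cycle genes hold a CCAAT box followed by a cell cycle genes homology region (CHR), an element bound by the DREAM and MuvB complexes.

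The promoters of 34 of the 40 genes, 30 of them tested, were found in RefSeq (build GRCh38.p14). The motifs searched on both strands were the CHR letters TTTGAA, the variant TTTAAA, the CCAAT box (CCAAT) and an E2F core (GCGGGAA). None of these motifs contains another. The windows below run from 100 bases before the RefSeq start to 50 after it. They are printed 5′ to 3′ on the gene's strand with CHR, CHR variant and CCAAT matches in capitals, and TTCAAA and ATTGG are the same motifs on the other strand. The first 4 belong to mitotic genes with large falls after radiation, KIF20B and KIF22 to mitotic genes with smaller falls, and KIF1C and KIF5B to the transport genes with the highest levels. They are examples and do not show that layout goes with the size of the fall. KIF2C, with a large fall, held no CCAAT match, while KIF18A and KIF23, with smaller falls, held both motifs.
KIF20A (chr5:138179012-138179161, plus strand): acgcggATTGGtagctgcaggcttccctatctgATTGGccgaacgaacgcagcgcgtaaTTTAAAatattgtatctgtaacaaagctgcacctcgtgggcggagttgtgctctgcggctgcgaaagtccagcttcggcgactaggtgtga
KIF4A (chrX:70290004-70290153, plus strand): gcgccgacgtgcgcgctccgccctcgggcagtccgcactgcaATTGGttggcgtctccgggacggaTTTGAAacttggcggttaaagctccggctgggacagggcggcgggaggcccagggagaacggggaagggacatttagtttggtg
KIF18B (chr17:44947724-44947873, minus strand): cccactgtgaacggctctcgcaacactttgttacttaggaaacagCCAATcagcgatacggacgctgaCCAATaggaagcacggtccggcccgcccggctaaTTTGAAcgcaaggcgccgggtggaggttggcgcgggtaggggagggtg
KIF11 (chr10:92593030-92593179, plus strand): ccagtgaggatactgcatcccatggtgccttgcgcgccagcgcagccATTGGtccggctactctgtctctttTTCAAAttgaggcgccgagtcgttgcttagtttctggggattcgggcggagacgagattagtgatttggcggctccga
KIF20B (chr10:89701490-89701639, plus strand): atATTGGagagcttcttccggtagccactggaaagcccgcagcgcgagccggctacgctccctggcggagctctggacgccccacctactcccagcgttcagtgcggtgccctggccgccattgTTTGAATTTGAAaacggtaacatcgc
KIF22 (chr16:29790651-29790800, plus strand): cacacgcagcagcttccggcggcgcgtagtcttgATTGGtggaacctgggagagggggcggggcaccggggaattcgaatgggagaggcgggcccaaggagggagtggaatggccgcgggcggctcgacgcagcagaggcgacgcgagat
KIF1C (chr17:4997850-4997999, plus strand): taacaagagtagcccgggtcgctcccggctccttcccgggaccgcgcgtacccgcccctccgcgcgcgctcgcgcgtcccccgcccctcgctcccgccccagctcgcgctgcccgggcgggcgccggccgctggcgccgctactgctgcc
KIF5B (chr10:32056376-32056525, minus strand): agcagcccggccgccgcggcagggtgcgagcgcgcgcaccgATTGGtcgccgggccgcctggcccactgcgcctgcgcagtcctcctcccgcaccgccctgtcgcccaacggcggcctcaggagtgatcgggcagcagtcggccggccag

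In these windows, 10 of 11 tested mitotic kinesins held TTTGAA or TTTAAA, the exception being KIF22. None of 10 transport kinesins and none of 5 kinesins of cilia and microtubule regulation did. The same letters were found in 6.46% of 10490 tested protein-coding genes and in 11.2% of all 35116 promoters. With the window widened to 250 bases before the start, the counts were 10 of 11 mitotic and 2 of 10 transport genes (KIF5B and KIF16B), against 15.8% of tested protein-coding genes. A CCAAT box lay in the shorter window of 9 of 11 mitotic genes, all but KIF2C and KIF15, in 2 of 10 transport genes, KIF5B and KIF3B, and in 23.5% of tested protein-coding genes. In KIF23 the nearest CCAAT match and the following CHR match began 9 bases apart. In KIF11, KIF20A, KIF4A and KIF14 they began 23 to 26 bases apart, in KIF18A and KIF18B 34 to 35 bases apart. KIF20B was different in layout: its CHR letters stood in tandem 25 and 31 bases after the start, 122 bases from the nearest CCAAT match. The E2F core letters were in none of the 11 mitotic windows and in 5.23% of those of tested protein-coding genes. A match is a run of letters and not a measured binding site. For KIF24, a gene of cilia and microtubule regulation, the window (chr9:34329219-34329368, minus strand) lay upstream of the counted gene, whose 5′ end is at 34311371.

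**Figure D1:**
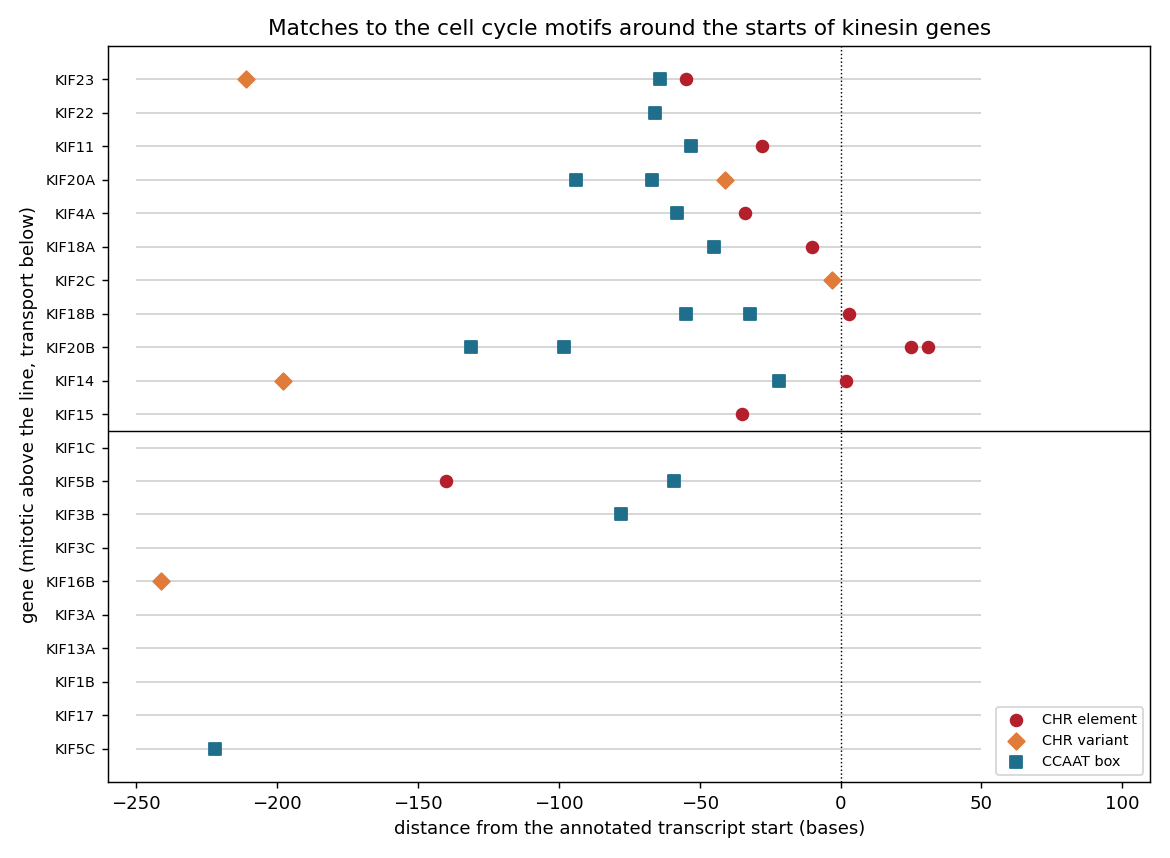
Positions of CHR (circles), CHR variant (diamonds) and CCAAT (squares) matches on either strand, in bases from the annotated RefSeq start (x axis), for 11 tested mitotic and 10 tested transport kinesin genes (y axis). In the mitotic genes most matches lie within 100 bases of the start, while 3 CHR variant and CCAAT matches (KIF23, KIF14 and KIF20B) lie farther out, and 6 of the 10 transport genes hold no match to these 3 motifs in the window of 250 bases before to 50 after the start.

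Radiation lowered the transcripts of the mitotic kinesins in shControl cells and left most transport kinesins without a called change. Of the 11 tested mitotic genes 9 fell and none rose, where 4.96% of all 16053 tested genes fell and 10% changed in either direction. The median log2 change of the 11 was -1.05, against 0.00 over all tested genes. Of the 12 tested transport genes 1 rose and none fell, with a median of 0.15, where 5.07% of all tested genes rose. Sham and irradiated libraries did not overlap for 9 mitotic genes, all lower, and for 2 transport genes, both higher, where 12% and 12.7% of all tested genes were apart in these directions. Calls are edgeR quasi-likelihood tests with Benjamini-Hochberg adjusted p under 0.05 over all tested genes, and each log2 change is given with its standard error.

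In shFXR cells the fall was steeper. All 11 mitotic genes fell, with a median log2 change of -2.79, where 10.2% of all tested genes fell and 21% changed either way. Of the 12 transport genes 1 rose and 2 fell, with a median of 0.01, where 10.9% of all tested genes rose. Sham and irradiated libraries did not overlap for any of the 11 mitotic genes, all lower, nor for 3 higher and 2 lower transport genes, where 22.6% of all tested genes were apart as higher and 21.1% as lower. Taken per length, the mitotic genes summed to 37.0 ± 5.1 FPKM in sham and 19.99 ± 2.7 in irradiated shControl cells, and to 48.6 ± 6.4 and 10.7 ± 0.55 FPKM in sham and irradiated shFXR cells (SD, n = 3). Irradiated libraries ran from 17.4 to 22.8 FPKM in shControl and from 10.4 to 11.4 in shFXR cells, so the 4 groups did not overlap in this sum. The transport genes summed to 80.1 ± 6.3 and 91.1 ± 4.4 FPKM in shControl and to 93.7 ± 0.46 and 91.1 ± 1.4 FPKM in shFXR cells. Sham and irradiated libraries did not overlap in this sum either, higher after radiation in shControl cells (72.8 to 84.4 against 86.0 to 93.7 FPKM) and lower in shFXR cells (93.3 to 94.2 against 89.5 to 92.3 FPKM). The mitotic genes made up 26.3% of the summed FPKM of the 40 genes in sham shControl, 14.4% in irradiated shControl, 28.1% in sham shFXR and 8.29% in irradiated shFXR cells. In bulk RNA, fewer cells in mitosis and less of each transcript per cell cannot be told apart.

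**Figure D2:**
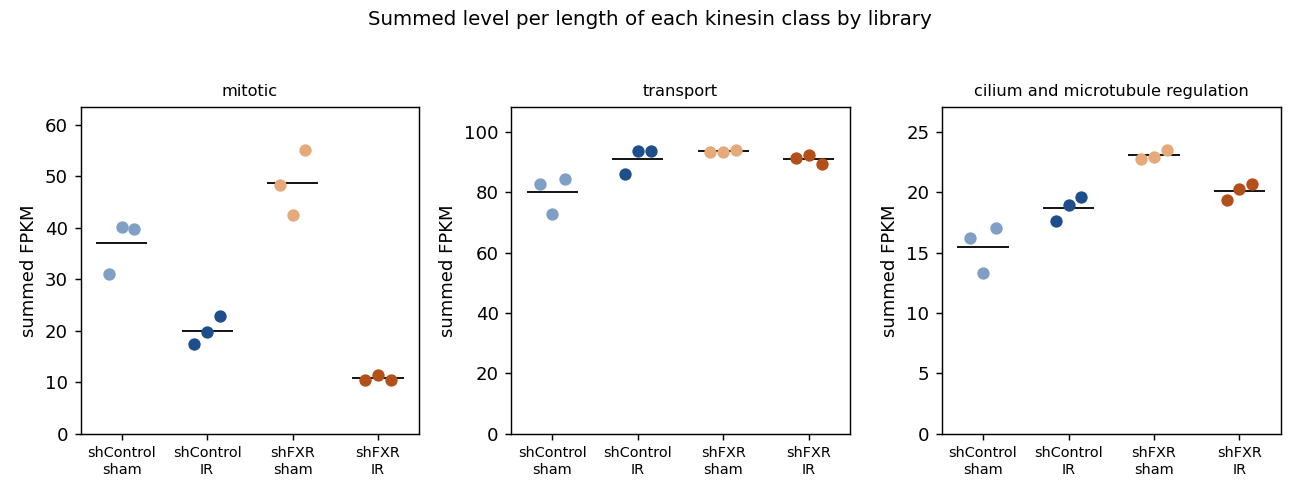
Summed level per length (FPKM, y axis from 0) of the mitotic, transport and cilium and microtubule regulation kinesins in each library (points) of the 4 groups (x axis; IR, irradiated), with group means as lines. The mitotic sum is 37.0 and 48.6 FPKM in the sham groups and 19.99 and 10.7 after radiation, while the transport sum runs from 72.8 to 84.4 in sham and 86.0 to 93.7 in irradiated shControl libraries and from 89.5 to 94.2 in shFXR libraries.

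The difference between the radiation responses of the lines, tested as an interaction, was called for 10 of 11 mitotic genes, all lower in shFXR cells, with a median of -1.67. Over all tested genes 7.67% were called lower, 7.31% higher and 15% either way. For KIF22 the difference was -0.56 ± 0.24 (adjusted p = 0.114). Of the 12 transport genes 3 had a called difference, all lower in shFXR cells (KIF5B, KIF13A and KIF3A), with a median of -0.10. The 4 groups enter this test together, so it shares its libraries with the 2 radiation comparisons above.

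**Figure D3:**
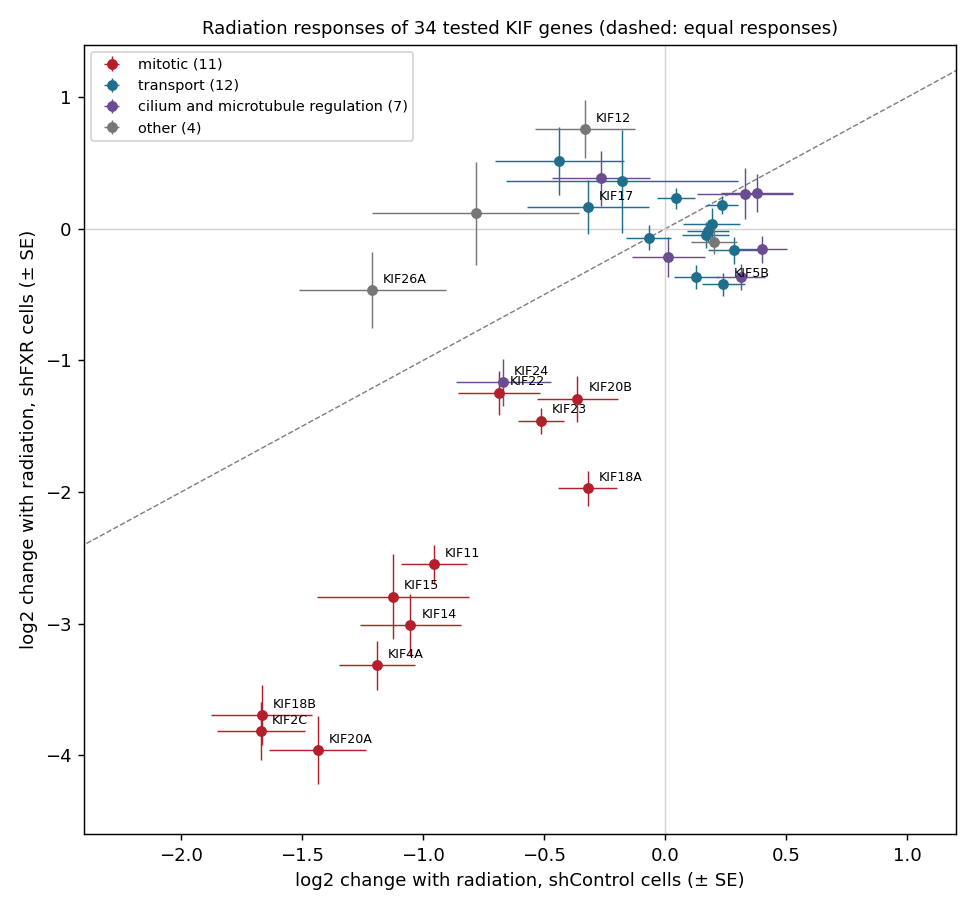
Log2 change with radiation in shControl cells (x axis) against that in shFXR cells (y axis) for the 34 tested kinesin genes, coloured by class, with bars of 1 standard error. The mitotic genes lie below the dashed line of equal responses, KIF20A lowest at -3.96 in shFXR cells against -1.44 in shControl cells, while transport genes lie near 0 on both axes.

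Markers of dividing cells moved with the mitotic genes. The summed level of all 3 markers, MKI67, TOP2A and CCNB1, ran from 200 to 292 CPM in sham and from 91.9 to 166 CPM in irradiated shControl libraries, and from 312 to 401 and 48.9 to 56.9 CPM in shFXR libraries. MKI67, the Ki-67 gene, had a log2 difference between the responses of -2.62 ± 0.30. Their part in the kinesin result was not tested. Within groups the mitotic genes also moved together by library. The first sham shControl library was the lowest of its group in 11 of 11 mitotic genes, the first irradiated shControl library in 10 of 11, and the second sham shFXR library in 11 of 11, where between 34.8% and 37.2% of all tested genes were lowest in the latter 2 and 30.8% in the first.

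Among the kinesins that act in cytokinesis, KIF20A, KIF23 and KIF20B did not fall alike. KIF20A (MKLP2; chr5:138178719-138187715, plus strand) brings the chromosomal passenger complex to the central spindle. It was at 12.8, 18.8 and 17.6 CPM in sham and 4.28, 5.43 and 8.41 CPM in irradiated shControl cells, and at 17.8, 13.4 and 19.9 and 1.19, 0.975 and 1.09 CPM in sham and irradiated shFXR cells. The irradiated libraries lay below the sham libraries in each line, and those of shFXR below all others. Its log2 change was -1.44 ± 0.20 (adjusted p = 0.00017) in shControl and -3.96 ± 0.26 (adjusted p = 1.56e-09) in shFXR cells, the latter a level 15.6-fold lower. The responses of the lines differed by -2.52 ± 0.34 (adjusted p = 0.000245). KIF23 (MKLP1; chr15:69414246-69448427, plus strand) forms centralspindlin with RACGAP1 and had the highest level per length of the mitotic genes, 7.21 ± 0.26 FPKM in sham shControl cells. It was at 45.4, 48.2 and 48.6 and 34.6, 30.8 and 34.1 CPM in sham and irradiated shControl libraries and at 51.5, 47.6 and 61.7 and 17.7, 20.2 and 20.6 CPM in shFXR libraries. The groups of each line did not overlap, and the falls were smaller than those of KIF20A, 0.51 ± 0.09 and 1.46 ± 0.10 on the log2 scale (adjusted p = 0.00202 and 2.26e-09). KIF20B (MPP1; chr10:89701610-89774939, plus strand), which is needed late in cytokinesis, was at 8.81, 9.84 and 13.9 and 7.07, 10.1 and 8.19 CPM in shControl and at 13, 10.9 and 13.3 and 5.46, 4.76 and 5.01 CPM in shFXR cells. Its groups overlapped in shControl cells, where the log2 change was -0.36 ± 0.17 (adjusted p = 0.175), and were apart in shFXR cells (-1.29 ± 0.17 (adjusted p = 2.11e-05)). The difference between its responses was -0.93 ± 0.24 (adjusted p = 0.0157), and had adjusted p = 0.052 without the second irradiated shControl library.

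KIF14 (chr1:200551497-200620734, minus strand), which binds citron kinase in the cleavage furrow, was at 8.86, 10.8 and 15.5 and 4.44, 5.38 and 7.16 CPM in sham and irradiated shControl cells and at 19, 15.8 and 18.5 and 2.5, 2.7 and 1.42 CPM in shFXR cells. Radiation groups did not overlap in either line, with log2 changes of -1.05 ± 0.21 (adjusted p = 0.00344) and -3.01 ± 0.23 (adjusted p = 1.37e-08). CIT, the citron kinase gene itself, had log2 changes of -1.25 ± 0.15 and -2.82 ± 0.17.

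Among motors that set up the spindle, KIF11 (Eg5; chr10:92593286-92655395, plus strand) pushes the spindle poles apart. Its level was 20.6, 22.3 and 26.6 CPM in sham and 9.43, 11.8 and 14.6 CPM in irradiated shControl libraries, and 36.8, 32.6 and 38.4 and 6.65, 6.6 and 5.18 CPM in shFXR libraries. Sham shFXR cells were the highest group and irradiated shFXR cells the lowest, with no overlap between any groups. The log2 changes with radiation were -0.96 ± 0.14 (adjusted p = 0.000214) and -2.55 ± 0.15 (adjusted p = 4.54e-10), and their difference was -1.59 ± 0.20 (adjusted p = 0.000129). KIF15 (chr3:44761717-44873376, plus strand), which can hold a bipolar spindle in place of KIF11, had the lowest level per length of the tested mitotic genes, 0.647 ± 0.16 FPKM in sham shControl cells. It was at 2.64, 3.26 and 4.35 and 0.932, 1.14 and 2.6 CPM in shControl and 6.46, 4.57 and 7.82 and 0.91, 0.975 and 0.818 CPM in shFXR cells. The shControl groups nearly met, 2.60 CPM in the highest irradiated and 2.64 CPM in the lowest sham library, and the change there was -1.12 ± 0.31 (adjusted p = 0.0273). That call was lost when only the 2 groups compared were fitted (adjusted p = 0.0774) and without the third sham or the first or the second irradiated shControl library (adjusted p = 0.093, 0.0835 and 0.134). In shFXR cells the change was -2.79 ± 0.32 (adjusted p = 3.3e-06). The difference between the responses, -1.67 ± 0.46 (adjusted p = 0.0213), was lost without the third library of irradiated shControl, sham shFXR or irradiated shFXR cells (adjusted p = 0.136, 0.0574 and 0.0607).

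The microtubule length regulators of the spindle included some of the steepest falls. KIF2C (MCAK; chr1:44739818-44767767, plus strand) takes microtubules apart at kinetochores to correct faulty attachments. It was at 9.5, 14.4 and 11.8 and 3.12, 3.6 and 4.45 CPM in shControl and at 13.8, 11.8 and 15.8 and 1.19, 0.918 and 0.818 CPM in shFXR cells. KIF18B (chr17:44924709-44947711, minus strand), which limits the growth of astral microtubules, was at 8.55, 13.7 and 12.5 and 3.02, 3.43 and 4.45 CPM in shControl and at 19.7, 19.4 and 23 and 1.25, 2.41 and 1.14 CPM in shFXR cells. For both genes every irradiated library was below every sham library of its line, and the log2 changes in shFXR cells were -3.81 ± 0.22 and -3.69 ± 0.23 (adjusted p = 4.54e-10 and 8.33e-10). The differences between the responses were -2.15 ± 0.30 (adjusted p = 0.000319) for KIF2C and -2.03 ± 0.32 (adjusted p = 0.000767) for KIF18B. The sham shFXR libraries of KIF18B also lay above the sham shControl libraries (log2 0.84 ± 0.18 (adjusted p = 0.000958)), those of KIF2C did not (0.22 ± 0.16 (adjusted p = 0.306)). KIF18A (chr11:28020620-28108308, minus strand), which dampens chromosome movements at metaphase and is a relative of KIF18B, differed from it in shControl cells. It was at 11.6, 12.4 and 12.4 CPM in sham and 9.16, 9.78 and 10.2 CPM in irradiated shControl cells, a log2 change of -0.32 ± 0.12 (adjusted p = 0.104) that was not called although the 3 libraries of each group did not overlap. In shFXR cells it went from 15, 13.5 and 16.6 to 4.32, 3.79 and 3.38 CPM, a change of -1.97 ± 0.13 (adjusted p = 2.26e-09), and the difference between the responses was -1.65 ± 0.18 (adjusted p = 6.86e-05).

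Of the chromosome-bound motors, KIF4A (chrX:70290090-70420832, plus strand) organises chromosome arms and the central spindle. It was at 13, 16.7 and 16.2 and 5.48, 7.43 and 7.21 CPM in shControl and at 19.1, 16.4 and 24.2 and 2.16, 1.95 and 1.85 CPM in shFXR cells, with log2 changes of -1.19 ± 0.16 (adjusted p = 9.96e-05) and -3.32 ± 0.18 (adjusted p = 4.54e-10) and no overlap within either line. Its responses differed by -2.13 ± 0.25 (adjusted p = 7.91e-05). Its retrocopy KIF4B had 0 to 2 counts per library. The 2 genes are near-identical, so how reads were divided between them is uncertain. KIF22 (Kid; chr16:29790719-29805385, plus strand), which pushes chromosome arms away from the poles, was at 16.6, 28.4 and 23.2 and 11.3, 14.4 and 16.7 CPM in shControl and at 30.7, 28.1 and 37.7 and 11.6, 14.8 and 14.3 CPM in shFXR cells. The shControl groups overlapped by 1 library and the shFXR groups did not, with changes of -0.69 ± 0.17 (adjusted p = 0.0146) and -1.25 ± 0.17 (adjusted p = 1.85e-05). The shControl call was lost without the second sham or the second irradiated shControl library (adjusted p = 0.0596 and 0.0582). The difference between the responses of KIF22 was not called with all libraries, and without the second sham shControl library it was -0.76 (adjusted p = 0.0202). An overlapping gene on the other strand, with no count in any library, covers 13% of the exonic bases of KIF22. KIF2B, a motor of kinetochore attachments, had no count in any of the 12 libraries, which allows a level of up to 0.157 to 0.181 CPM per library (3 counts).

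**Figure D4:**
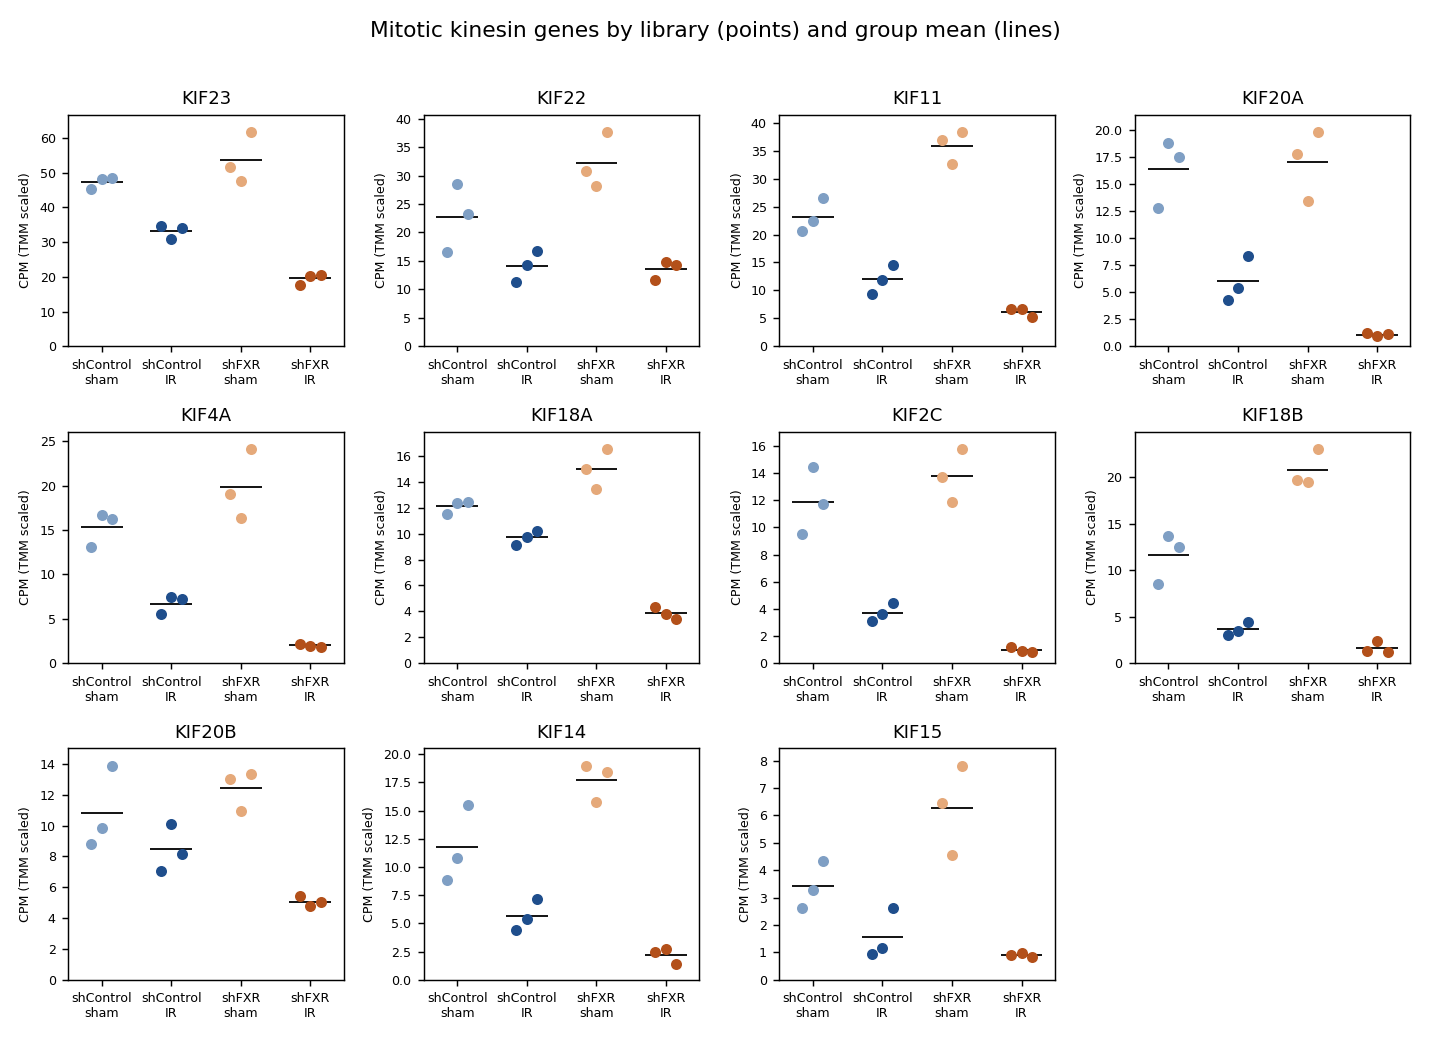
Level (CPM, TMM scaled, y axes from 0) of the 11 tested mitotic kinesin genes in each library (points) of the 4 groups (x axes; IR, irradiated), with group means as lines. In each panel the lowest group mean is that of irradiated shFXR cells, from 19.5 CPM for KIF23 to 0.90 CPM for KIF15.

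Ordered by their change in shFXR cells, the mitotic genes ran from KIF20A (-3.96) through KIF2C, KIF18B, KIF4A, KIF14, KIF15 and KIF11 (-2.55) to KIF18A (-1.97), KIF23, KIF20B and KIF22 (-1.25). Of the 10 gaps between neighbours, those between KIF11 and KIF18A (0.58 with a standard error of 0.20) and between KIF18A and KIF23 (0.52, standard error 0.17) exceeded 2 standard errors. The other gaps were within 2 standard errors. The errors were taken as independent between genes, although the mitotic genes moved together by library, so the order is a description only.

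Without radiation, the shFXR line held more of several mitotic transcripts than the shControl line. Of the 11 genes 7 were higher and none lower, with a median log2 change of 0.38, where 18% of all tested genes were higher and 37.4% changed either way. The 7 were KIF11 (0.63 ± 0.13), KIF15 (0.88 ± 0.27), KIF18B (0.84 ± 0.18), KIF14 (0.59 ± 0.19), KIF22 (0.50 ± 0.16), KIF4A (0.38 ± 0.14) and KIF18A (0.31 ± 0.12). The count was 2 without the first sham shControl library, which was the lowest of its group in each of these genes, 2 without the third sham shFXR library and 4 without the first sham shFXR library. KIF4A and KIF18A lost their calls in 10 and 9 of 21 alternatives. The shift was not particular to mitotic genes. Of the 7 tested motors of cilia and microtubule regulation, 4 were higher and 1 lower (median 0.53). Of these, KIF2A, KIF21A and KIF24 were called higher in every alternative run. Of the 12 transport genes, 5 were higher and 1 lower (median 0.28). MKI67 was higher too, at 52.2 ± 11 and 86.1 ± 20 CPM in sham shControl and shFXR cells. After radiation the order turned: 9 of 11 mitotic genes were lower in shFXR than in shControl cells and none higher, with a median of -1.18, where 21.3% of all tested genes were lower and 40.8% changed either way. KIF22 (-0.06 ± 0.18 (adjusted p = 0.825)) and KIF15 (-0.79 ± 0.38 (adjusted p = 0.102)) were the other two. These 2 comparisons use the same libraries as the radiation comparisons above.

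The transport kinesins with the highest levels per length were KIF1C, at 22.1 ± 0.89 FPKM, and KIF5B, at 20.8 ± 2.6 FPKM in sham shControl cells. KIF1C (chr17:4997948-5028401, plus strand) carries vesicles and integrins toward the cell edge. It was at 181, 197 and 190 CPM in sham and 211, 235 and 222 CPM in irradiated shControl libraries, and at 247, 245 and 249 and 283, 278 and 280 CPM in shFXR libraries. The 4 groups formed 4 steps with no overlap. The step with radiation in shControl cells was called (0.23 ± 0.07 (adjusted p = 0.029)), a call lost with no filter (adjusted p = 0.0671), when only the 2 groups compared were fitted (adjusted p = 0.163) and without the first sham or the second or the third irradiated shControl library (adjusted p = 0.0994, 0.156 and 0.0657). The step in shFXR cells missed the threshold (0.18 ± 0.07 (adjusted p = 0.0553)) and passed it in 5 alternatives: a mean of at least 5 CPM, protein-coding genes only, only the 2 groups compared, DESeq2, and without the second sham shControl library (adjusted p = 0.0123, 0.0308, 0.0103, 0.0243 and 0.035). Its responses differed by -0.05 ± 0.09 (adjusted p = 0.742), which was not called. The steps between the lines were 0.38 ± 0.07 (adjusted p = 0.00013) without and 0.33 ± 0.07 (adjusted p = 0.000439) with radiation.

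KIF5B (chr10:32009010-32056431, minus strand), the widely expressed heavy chain of conventional kinesin, responded in opposite directions by its point estimates. It was at 126, 105 and 135 and 131, 143 and 159 CPM in sham and irradiated shControl cells, a change of 0.24 ± 0.09 (adjusted p = 0.0867) that was not called and with overlapping groups. KIF5B gained this call without the third sham or the first irradiated shControl library (adjusted p = 0.0304 and 0.0361). In shFXR cells it fell from 143, 139 and 144 to 106, 110 and 102 CPM, with no overlap (-0.42 ± 0.09 (adjusted p = 0.00203)). The difference between the responses was -0.66 ± 0.12 (adjusted p = 0.00242), and it was called in all 20 alternatives run. The neuronal heavy chains were low. KIF5A had 1.94 ± 0.38, 1.44 ± 0.37, 1.57 ± 0.14 and 2.24 ± 0.47 CPM in sham and irradiated shControl and sham and irradiated shFXR cells, with no called change. Between the irradiated lines its difference of 0.64 ± 0.26 (adjusted p = 0.059) was called without the second sham or the first irradiated shControl library (adjusted p = 0.0482 and 0.0232) and without TMM factors (adjusted p = 0.0486). KIF5C, at 5 to 21 counts per library, had 0.528, 0.483 and 0.315 and 0.274, 0.515 and 0.38 CPM in shControl and 0.442, 0.903 and 0.701 and 0.569, 1.2 and 0.872 CPM in shFXR cells. It was higher in irradiated shFXR than in irradiated shControl cells (1.17 ± 0.43 (adjusted p = 0.0356)), a call lost in 6 of 20 alternatives, 4 of them without the first or the third irradiated shControl or the second or the third irradiated shFXR library (adjusted p = 0.117, 0.0865, 0.174 and 0.0756). KIF1A, a motor of synaptic vesicle precursors, had 0 to 7 counts and was not tested. The summed level of 6 neuron markers ran from 97.8 to 120 and 91.9 to 109 CPM in shControl and from 161 to 172 and 170 to 183 CPM in shFXR libraries, of which MAP2 alone took 25.7 ± 4.4 CPM in sham shControl and 76 ± 1.8 CPM in sham shFXR cells. Their part in the KIF5C result was not tested.

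The kinesin-2 motors KIF3A, KIF3B and KIF3C form pairs, KIF3A with either of the other two, that carry cargo into cilia and along axons. KIF3B (chr20:32277664-32335011, plus strand) was at 68.5, 53.9 and 70.3 and 67.8, 74.2 and 76.2 CPM in shControl and at 91.2, 92 and 90.9 and 91.4, 92.3 and 87.1 CPM in shFXR cells. KIF3C (chr2:25926596-25982749, minus strand) went the other way, at 69.6, 60 and 65.2 and 66.9, 67.9 and 66.5 CPM in shControl and 40.8, 44.9 and 40 and 49.4, 45.8 and 52.4 CPM in shFXR cells. The lines did not overlap for either gene. KIF3B was higher in the shFXR line by 0.51 ± 0.09 without and 0.31 ± 0.09 with radiation, and KIF3C lower, with log2 changes of -0.63 ± 0.08 and -0.45 ± 0.08 (adjusted p = 0.000117, 0.00648, 3.59e-06 and 0.000138 in this order). KIF3A was at 25.1, 19.3 and 25.5 and 26.8, 31 and 27.5 CPM in shControl and 27.8, 31.5 and 29.5 and 28.9, 25.5 and 25 CPM in shFXR cells. Its difference between the responses (-0.45 ± 0.15 (adjusted p = 0.0478)) lost its call in 12 of 20 alternatives, among them 8 without 1 library, with adjusted p from 0.0577 without the first sham shFXR to 0.126 without the second irradiated shControl library. The second sham shControl library held its lowest value of that group, and without it adjusted p = 0.0644. The radiation rise of KIF3C in shFXR cells, 0.23 ± 0.08 (adjusted p = 0.0457), was lost in 11 of 21, with adjusted p up to 0.198 without the third irradiated shFXR library. KIF17, another kinesin-2 motor known from cilia and dendrites, was at 2.48, 2.23 and 1.52 and 1.92, 1.77 and 1.3 CPM in shControl and 4.42, 4.57 and 3.51 and 3.92, 5.51 and 4.58 CPM in shFXR cells. All shFXR libraries lay above all shControl libraries, by 1.00 ± 0.22 (adjusted p = 0.00153) without and 1.49 ± 0.23 (adjusted p = 3.27e-05) with radiation.

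**Figure D5:**
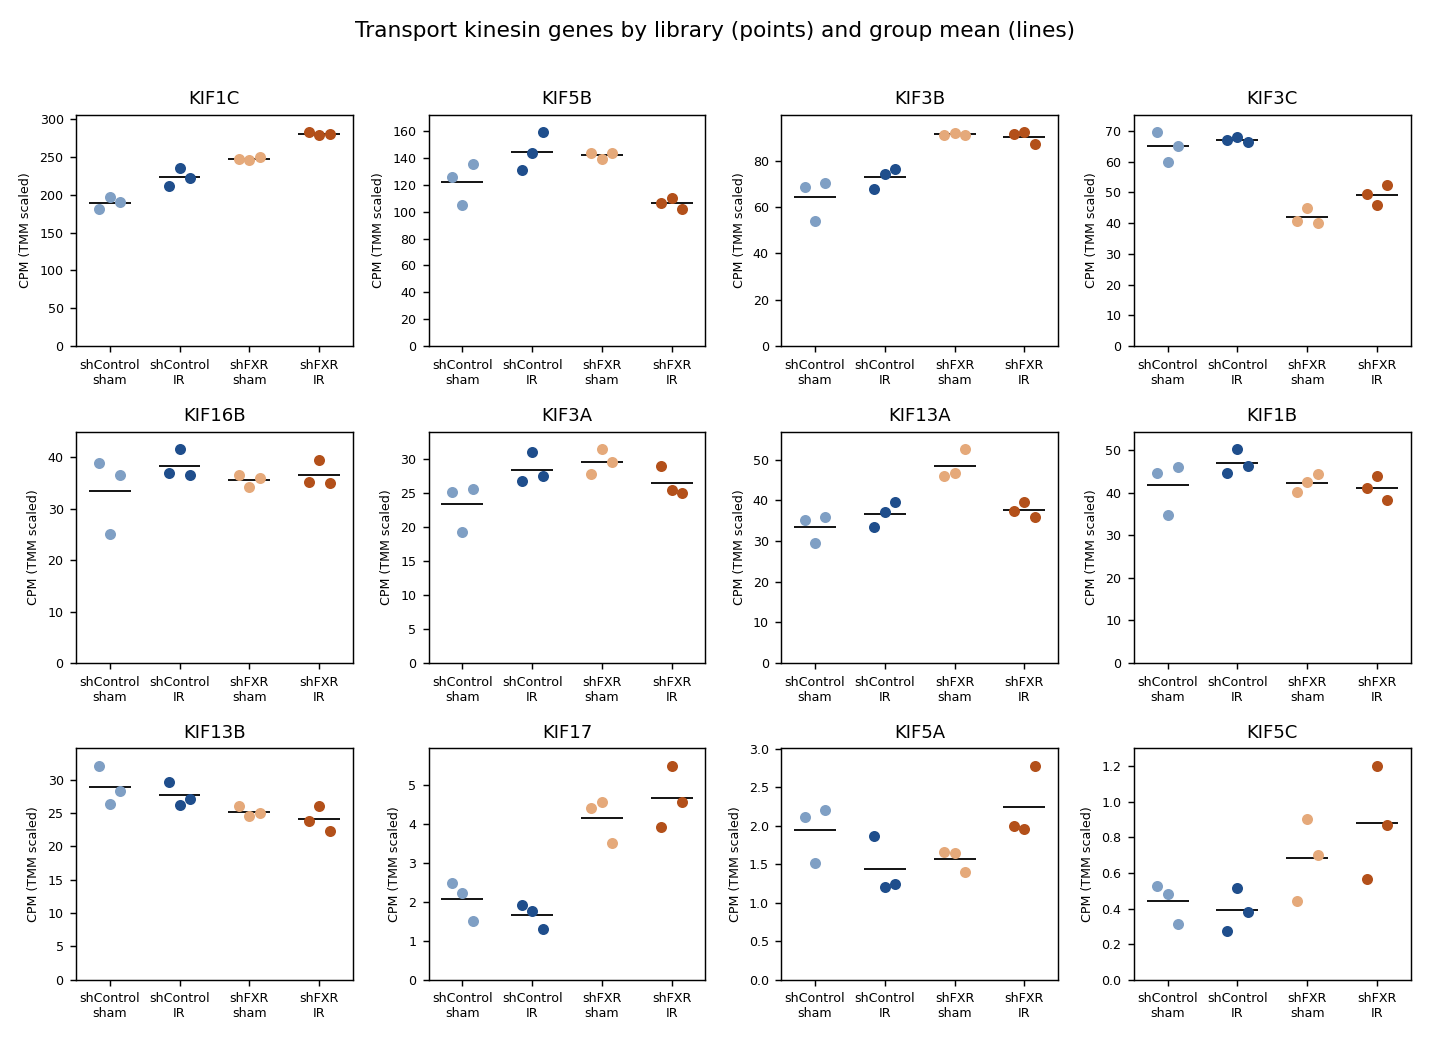
Level (CPM, TMM scaled, y axes from 0) of the 12 tested transport kinesin genes in each library (points) of the 4 groups (x axes; IR, irradiated), with group means as lines. KIF1C, KIF3B and KIF17 are higher and KIF3C is lower in the shFXR line, and KIF5B is lowest in irradiated shFXR cells, at 106 CPM.

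Of the other vesicle motors, KIF13A (chr6:17759183-17987623, minus strand), which carries endosomes and receptors, was at 35.1, 29.4 and 35.9 and 33.4, 37 and 39.6 CPM in shControl and at 46, 46.6 and 52.7 and 37.4, 39.6 and 35.8 CPM in shFXR cells. Sham shFXR cells stood above the other 3 groups. The fall with radiation in shFXR cells was 0.37 ± 0.09 on the log2 scale (adjusted p = 0.00787), and the difference between the responses -0.49 ± 0.13 (adjusted p = 0.0171). The latter was lost without the third library of irradiated shControl, sham shFXR or irradiated shFXR cells (adjusted p = 0.0555, 0.0511 and 0.0522). KIF16B, a motor of early endosomes, KIF1B, a motor of mitochondria and vesicles, and KIF13B, a relative of KIF13A, had no called change in any of the 5 comparisons with all libraries. Without the second sham shControl library KIF13B was called lower in sham shFXR than in sham shControl cells (-0.20 ± 0.09 (adjusted p = 0.0964) with all libraries, adjusted p = 0.0446 without it) and KIF1B lower in irradiated shFXR than in irradiated shControl cells (-0.20 ± 0.10 (adjusted p = 0.117) and adjusted p = 0.0384). Their group means ran from 33.5 to 38.4 CPM for KIF16B, from 41.1 to 47 for KIF1B and from 24.1 to 28.9 for KIF13B. For the transport genes as a whole, 5 were higher and 1 lower in sham shFXR than in sham shControl cells, and 4 higher and 2 lower after radiation. Over all tested genes 19.4% were lower without radiation and 19.5% higher with it, and these 6 of 12 are set beside 37.4% and 40.8% called either way. Libraries of the lines did not overlap for 6 higher and 2 lower transport genes without radiation, where 22.9% and 23.9% of all tested genes were apart, and for 5 higher and 4 lower with it, where 25.8% and 27.1% were. The second sham shControl library was the lowest of its group in 9 of 12 transport genes.

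Among the 7 tested motors of cilia and microtubule regulation, radiation in shControl cells raised 1 and lowered 1, and in shFXR cells it lowered 2. This is 28.6% in each line, beside 10% and 21% of all tested genes called either way. KIF24 (chr9:34252381-34311371, minus strand), which restrains cilium growth from the mother centriole in dividing cells, fell in both lines. It was at 3.48, 4.89 and 4.77 and 3.07, 2.23 and 2.93 CPM in shControl and 7.35, 7.7 and 9.82 and 3.47, 3.67 and 3.92 CPM in shFXR cells, with log2 changes of -0.67 ± 0.20 (adjusted p = 0.0345) and -1.17 ± 0.18 (adjusted p = 9.65e-05). Its responses did not differ by a called amount (-0.50 ± 0.27 (adjusted p = 0.214)), and the shControl call was lost without the second or the third sham or the second or the third irradiated shControl library (adjusted p = 0.0945, 0.0841, 0.168 and 0.0712) and when only the 2 groups compared were fitted (adjusted p = 0.112). KIF2A (chr5:62306162-62537249, plus strand) takes microtubules apart at spindle poles, in neurons and at cilia, and is a relative of KIF2C. It was at 32.4, 24.9 and 33.1 and 33.5, 38 and 41 CPM in shControl and 48.6, 47.4 and 51.8 and 36.6, 39.5 and 39 CPM in shFXR cells. Irradiated libraries were above sham libraries in shControl and below them in shFXR cells, with log2 changes of 0.31 ± 0.10 (adjusted p = 0.055), which was not called, and -0.36 ± 0.10 (adjusted p = 0.0131). The difference was -0.67 ± 0.14 (adjusted p = 0.00494), against -2.15 ± 0.30 for KIF2C. KIF21A (chr12:39293228-39443390, minus strand), which slows microtubule growth at the cell edge, had the same arrangement of groups, at 41, 30.3 and 44.3 and 47.3, 51.2 and 54.3 CPM in shControl and 60.4, 55.7 and 61.3 and 54.2, 53.9 and 51.1 CPM in shFXR cells. Its change was 0.40 ± 0.10 (adjusted p = 0.0203) in shControl and -0.15 ± 0.10 (adjusted p = 0.309) in shFXR cells, with a difference of -0.55 ± 0.15 (adjusted p = 0.0171). Without the third irradiated shControl library both calls were lost (adjusted p = 0.0879 and 0.0534), and the change in shControl cells was lost without the second (adjusted p = 0.0769), when only the 2 groups compared were fitted (adjusted p = 0.0914) and without TMM factors (adjusted p = 0.0574). The KIF2A change in shFXR cells was lost without the third sham or the first irradiated shFXR library (adjusted p = 0.057 and 0.0634).

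KIF7, a regulator of Hedgehog signalling at the cilium tip, was at 10.7, 8.82 and 9.5 and 12.4, 15.2 and 10.3 CPM in shControl and 13.3, 16.2 and 12.6 and 15.3, 16.1 and 19.4 CPM in shFXR cells. It was higher in the shFXR line, by 0.53 ± 0.15 (adjusted p = 0.00741) without and 0.43 ± 0.14 (adjusted p = 0.0216) with radiation. These calls were lost without the second sham shFXR library (adjusted p = 0.0518), and without the third irradiated shControl or shFXR library (adjusted p = 0.127 and 0.129), in this order. KIF21B was at 9.34, 5.38 and 6.51 and 7.02, 5.72 and 4.99 CPM in shControl and 5.36, 4.94 and 3.72 and 4.95, 6.37 and 6.98 CPM in shFXR cells. It was lower in sham shFXR than in sham shControl cells (-0.60 ± 0.21 (adjusted p = 0.0276)), and this was lost without the first sham shControl or the second or the third sham shFXR library (adjusted p = 0.227, 0.0532 and 0.138). KIF9 and KIF27 had no called change in any comparison, with group means of 7.09 to 8.23 and 4.39 to 5.65 CPM. KIF27 has an expressed pseudogene (29 to 81 counts) and KIF9 an antisense gene (17 to 45 counts), so their counts are uncertain. KIF6, at 5 to 12 counts, was not tested, and KIF19 had no count in any library. Both are known from motile cilia, whose 4 markers summed to at most 3.85 CPM in any library.

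Of the 4 other tested genes, KIF12 (chr9:114086126-114099291, minus strand) was the only one with a called difference between the responses. The median difference of these 4 was 0.82. KIF12 is a kinesin of kidney and liver epithelia. It was at 5.07, 5.62 and 4.3 and 4.99, 3.2 and 3.69 CPM in shControl and 2.6, 3.08 and 2.05 and 5.29, 3.5 and 4.31 CPM in shFXR cells, so that sham shFXR libraries were the lowest. It rose with radiation in shFXR cells (0.76 ± 0.22 (adjusted p = 0.019)), and its difference between the responses was 1.09 ± 0.30 (adjusted p = 0.0214), the only one of the 16 called differences that was higher in shFXR cells. The rise was lost without the first or the third sham or the first or the third irradiated shFXR library (adjusted p = 0.0572, 0.103, 0.111 and 0.0511), the difference without the second or the third irradiated shControl, the third sham shFXR or the first irradiated shFXR library (adjusted p = 0.0611, 0.0595, 0.0666 and 0.0683). Without radiation KIF12 was lower in the shFXR line (-0.95 ± 0.22 (adjusted p = 0.00185)). KIF26A, whose motor domain does not hydrolyse ATP, fell with radiation in shControl cells at a low level, from 1.74, 2.72 and 4.14 to 1.7, 1.2 and 0.814 CPM (-1.21 ± 0.30 (adjusted p = 0.0166)). The call was lost without the third sham or the second or the third irradiated shControl library (adjusted p = 0.0849, 0.0709 and 0.0879) and when only the 2 groups compared were fitted (adjusted p = 0.0694). In shFXR cells KIF26A was at 2.38, 2.81 and 2.64 and 1.76, 1.89 and 2.02 CPM. KIF1BP, a partner that binds kinesin motor domains and is no motor itself, was at 30.4, 33.7 and 34.4 and 33.4, 38.4 and 41.5 CPM in shControl and 31.7, 28.9 and 33.2 and 27.9, 32 and 27.7 CPM in shFXR cells. Every irradiated shFXR library was below every irradiated shControl library (-0.37 ± 0.10 (adjusted p = 0.00378)). KIF25 had no called change at 8 to 30 counts, and its antisense gene had 32 to 80. KIF26B, at 0 to 9 counts, was not tested.

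All 4 listed kinesins that do not carry a KIF number fell with radiation in shControl cells, where 4.96% of all tested genes did, and in shFXR cells 2 fell and 1 rose. KIFC1, a minus-end motor that focuses spindle poles, was at 11.6 ± 2.7 and 4.62 ± 1.3 CPM in shControl and 15 ± 1.8 and 2.35 ± 0.27 CPM in shFXR cells, with a difference between the responses of -1.34 ± 0.29 (adjusted p = 0.00582). CENPE, the kinetochore kinesin, fell in both lines (-1.27 ± 0.28 and -2.17 ± 0.33), and its difference was -0.90 ± 0.44 (adjusted p = 0.17). KIFC3, another minus-end motor, was at 168 ± 5.2 and 126 ± 6.3 CPM in shControl and 192 ± 6.4 and 169 ± 6.3 CPM in shFXR cells. Its log2 changes were -0.42 ± 0.07 (adjusted p = 0.0006) and -0.18 ± 0.07 (adjusted p = 0.0682), the second not called. KIFC2 fell in shControl cells (-0.35 ± 0.10 (adjusted p = 0.0348)) and rose in shFXR cells (0.58 ± 0.10 (adjusted p = 0.000382)), a difference of 0.93 ± 0.14 (adjusted p = 0.000653).

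Most partners of the mitotic kinesins fell as well. Of 22 partners on the spindle, kinetochore and midbody, all tested, 15 fell and none rose in shControl cells (median -0.89), 19 fell and 1 rose in shFXR cells (median -2.22), and 19 had a called lower difference (median -1.28). Of all tested genes 4.96%, 10.2% and 7.67% were called lower in these comparisons. CDK1, the mitotic kinase, had a difference of -1.80 ± 0.20, CEP55, which recruits the abscission machinery, of -2.21 ± 0.29 and HMMR, a spindle pole protein, of -2.19 ± 0.31. MAPRE3, a microtubule end-binding protein, was the one that rose in shFXR cells (0.40 ± 0.10 (adjusted p = 0.0068)). Of 23 tested light chains, accessory subunits and cargo adaptors, KIF1BP among them, 1 was lower and none higher after radiation in shControl cells. Of all tested genes 4.96% were lower and 5.07% higher there, so the count was near that share. In shFXR cells 6 of the 23 were higher and 1 lower, where 10.9% of all tested genes were higher and 10.2% lower. Of the 23, 4 had a called higher difference and none a lower one (median 0.09), where 7.31% of all tested genes had a higher one, with MAPK8IP3, a kinesin and dynein adaptor, at 0.78 ± 0.14 (adjusted p = 0.00182) and CLSTN1, a cargo receptor of kinesin light chain, at 0.61 ± 0.11 (adjusted p = 0.00193).

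Of 21 tested genes of cytoplasmic dynein and dynactin, the motor that runs the other way, radiation raised 2 and lowered 1 in shControl cells and lowered 5 in shFXR cells, where 5.07% and 4.96% of all tested genes rose and fell in shControl cells and 10.2% fell in shFXR cells. A lower difference was called for 3 of the 21, against 7.67% of all tested genes, led by DYNC1LI1 (-0.62 ± 0.13 (adjusted p = 0.00525)). Of 15 tested intraflagellar transport B genes, cargo of kinesin-2, 1 had a called difference, IFT74 (-0.60 ± 0.17 (adjusted p = 0.0257)), where 15% of all tested genes had one in either direction. Of 15 tested tubulins, 2 fell in shControl cells and 7 fell and 1 rose in shFXR cells, where 4.96% of all tested genes fell in shControl and 10.2% fell and 10.9% rose in shFXR cells. TUBA1B, a main alpha-tubulin, fell by 1.64 ± 0.18 in shFXR cells with a difference of -1.07 ± 0.25 (adjusted p = 0.00948), and TUBG2, a gamma-tubulin, had a difference of 0.84 ± 0.18 (adjusted p = 0.00653). Of 16 tested microtubule lattice and motor-track genes, 3 were lower and 1 higher after radiation in shControl cells, 1 lower and 2 higher in shFXR cells, beside 10% and 21% of all tested genes called either way, and the count in shFXR cells was near that share. STMN1, which binds free tubulin, fell in both lines (-0.85 ± 0.09 and -1.05 ± 0.09), and HDAC6, a tubulin deacetylase, had a difference of 0.70 ± 0.12 (adjusted p = 0.0014).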

How the data were processed

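The deposited table holds raw counts per gene for 12 libraries and the gene length in bases (gene_length, another unit than the counts), both as deposited by the authors. The genome build was hg38, per the submitters' processing notes, which also name DESeq2 1.20.0 without its step. Aligner, counter and strand setting are not stated, so reads of overlapping antisense genes cannot be told apart. No tested kinesin gene shared more than 20% of its exonic bases with other genes. KIF2A shared 8.97% with IPO11 on the same strand, and KIF7 shared 11.8% with TICRR on the other strand. The part of these shared bases in the counts was not tested. No sample columns were left unmapped (0).

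Counts were filtered with filterByExpr (minimum count 10, minimum total 15), scaled by TMM and fitted with edgeR 4.0.16 (R 4.3.3, limma 3.58.1), glmQLFit and glmQLFTest, on all 12 libraries with 1 coefficient per group (8 residual degrees of freedom). Genes were called at Benjamini-Hochberg adjusted p under 0.05 over 16053 tested genes, and standard errors come from the log2 change and the F statistic (their ratio with the root of F). FPKM are TMM-scaled CPM divided by gene length in kilobases. Overlap between groups is of CPM. Scripts were tested on simulated counts. The labels call the replicates biological without saying whether they were separate cultures. The p-values weigh each change against the spread between these samples, which the main fit estimated from all 12 libraries together. Replicate numbers were not taken as pairs in the main fit, and no 2 libraries of a group agreed within sampling noise.

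All kinesin genes are accounted for; those called in any comparison that are described singly are given by library. NR1H4, MKI67, CENPE and KIFC1 are always given, and up to 3 called genes of each list in each direction. Genes, classes and lists were chosen with earlier results of these data known. Promoters come from RefSeq (GRCh38.p14), 250 bases before to 50 after each start, taking the start nearest the gene's 5′ end. The analysis was repeated with RLE scaling, without scaling factors, unfiltered, with a mean of at least 5 CPM, protein-coding genes only, a replicate block, only the groups compared, DESeq2 1.42.0, leaving out each library, the shorter promoter window and, added after seeing the data, leaving out mitochondrial genome genes. Limits from 3 counts cover counting error only, while SD and standard errors include the spread between libraries.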

Additional observations from a re-analysis of the deposited data

Results flagged for a closer look

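For 16 of the 34 tested kinesin genes the radiation response differed between the lines by edgeR's interaction test, where 15% of all tested genes did. Values are log2 differences (shFXR response minus shControl response) with Benjamini-Hochberg adjusted p. They describe the lines, since the knockdown and other differences between the lines cannot be told apart.

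Among mitotic genes the differences were -2.52 for KIF20A (adjusted p = 0.000245), -2.15 for KIF2C (adjusted p = 0.000319), -2.13 for KIF4A (adjusted p = 7.92e-05), -2.03 for KIF18B (adjusted p = 0.000767) and -1.96 for KIF14 (adjusted p = 0.000894). They were -1.67 for KIF15 (adjusted p = 0.0213), -1.65 for KIF18A (adjusted p = 6.86e-05), -1.59 for KIF11 (adjusted p = 0.000129), -0.94 for KIF23 (adjusted p = 0.000426) and -0.93 for KIF20B (adjusted p = 0.0157). In each of these genes the irradiated shFXR group had the lowest mean of the 4.

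Among transport genes they were -0.66 for KIF5B (adjusted p = 0.00242), -0.49 for KIF13A (adjusted p = 0.0171) and -0.45 for KIF3A (adjusted p = 0.0478). KIF2A and KIF21A differed by -0.67 (adjusted p = 0.00494) and -0.55 (adjusted p = 0.0171), and KIF12 by 1.09 (adjusted p = 0.0214).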

How the results depend on the processing

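Of 82 called changes of single kinesin genes over the 5 comparisons, 57 were called in every alternative run. No result called in the main run or in the alternative changed sign between them, and signs of uncalled results were not compared. The 1 transport call for radiation in shControl cells (KIF1C) went to 0 with no filter and to 0 when only the groups compared were fitted. Leaving out each library, the mitotic calls ran from 7 to 9 for radiation in shControl cells, 11 to 11 in shFXR cells, 9 to 11 for the difference of responses, 2 to 8 for the lines without and 9 to 10 with radiation. The transport calls ran from 0 to 2, 2 to 4, 1 to 4, 5 to 7 and 5 to 8 in the same order. The 3 transport differences were 1 without the third irradiated shControl, the third sham shFXR or the third irradiated shFXR library. With no filter, KIF2A in shControl cells, the difference of KIF22 and KIF5B between the sham lines gained calls (adjusted p = 0.0287, 0.00695 and 0.0241). KIF5B between the sham lines was also called with RLE scaling, without TMM factors and with DESeq2 (adjusted p = 0.0477, 0.0307 and 0.0437). KIF2A in shControl cells was also called with DESeq2 (adjusted p = 0.0377). Each of these results gained its call in some runs without a single library as well. The cause was not tested.

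Replicate numbers were not taken as pairs in the main fit. Same-number correlations of deviations over all tested genes ran from -0.14 to 0.23, and different-number ones from -0.18 to 0.16. Of 36 combinations, 6 were best with their own number. The highest correlation, 0.23, was between the first sham and the first irradiated shControl library. These were the lowest of their groups in 11 of 11 and 10 of 11 mitotic genes. Whether they shared a batch was not tested. With the replicate block, 9 mitotic and 1 transport gene were called for radiation in shControl cells. KIF22 then had a called difference (adjusted p = 0.0443) and KIF2A a called change in shControl cells (adjusted p = 0.0477), while KIF18A between the sham lines (adjusted p = 0.0602), KIF3A's difference (adjusted p = 0.058) and KIF3C in shFXR cells (adjusted p = 0.064) lost their calls.

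Without TMM factors, the split of all genes between the sham lines went from 2885 higher and 3118 lower to 3820 and 2465; for KIF21B the call was then lost (adjusted p = 0.0651). Only 252 and 299 genes were called for radiation in shControl cells when the groups compared were fitted alone, against 814 and 797.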
